A study of Mus musculus with 2 samples.

Results

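The regulatory T cell activation genes are 8 of the 32285 gene rows measured: Foxp3, Ikzf2, Il2ra, Tnfrsf4, Tnfrsf9, Tnfrsf18, Icos and Il10. They were chosen by name, as genes that activated regulatory T cells are known to express, and with earlier results of these data known. Their unique molecular identifiers (UMIs, each standing for 1 captured transcript) were counted in cells gated by marker genes as Foxp3 positive T, other T, NK and myeloid. All 8 were detected in both libraries. The cells came from tumours of CT26, a colon carcinoma line, in mice of the BALB/c strain, and each library was made with a droplet assay that reads transcript 3′ ends. One library had the genotype PTIR1-expressing and 1 had the genotype mock. The series concerns PTIR1 and the resistance of tumours to immunity, and the comparison asks what differs among the cells that entered each kind of tumour. How many animals were pooled, whether cells were sorted, and how the PTIR1-expressing line was made are not stated in the sources used here. No gene row carried the name PTIR1 (0 rows), so the genotype labels could not be checked against it.

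Regulatory T cells are CD4 T cells that restrain other immune cells, and in tumours they often carry an activated form of their program. Foxp3 is the transcription factor that defines them. Interleukin 2, taken up through the high-affinity receptor chain encoded by Il2ra, keeps them alive and acts through STAT5. Tnfrsf4 (OX40), Tnfrsf9 (4-1BB) and Tnfrsf18 (GITR) are receptors of the tumour necrosis factor family that signal to NF-kB, and Icos is a costimulatory receptor related to Cd28. All of these but Foxp3 also appear on other activated lymphocytes, which is why the same genes were read in other T, NK and myeloid cells.

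The PTIR1 library held 98540561 UMIs over 9006 barcodes and the mock library 95166611 over 10833. After filtering, 7567 PTIR1 cells and 9328 mock cells remained, with median depths of 7016 and 2947.5 UMIs. The barcode lists shared 30 sequences. The labels call the source tumour-infiltrating lymphocytes, yet the largest gate in either library was myeloid, with 2637 PTIR1 cells and 5121 mock cells. A T cell had at least 2 UMIs of Cd3d, Cd3e and Cd3g and met no other lineage gate. Such cells numbered 116 in the PTIR1 library and 212 in the mock library. Of all cells with that many Cd3 UMIs, 340 of 456 in the PTIR1 library and 526 of 738 in the mock library also met an NK, macrophage or other gate and were left out. Their median depths were 21068 UMIs in the PTIR1 library and 16416 UMIs in the mock library, against 6321.5 and 5085.5 UMIs in cells that met the T gate alone.

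Foxp3 positive T cells, those T cells with at least 1 Foxp3 UMI, numbered 29 in the PTIR1 library and 42 in the mock library. They made up 25% of gated T cells in the PTIR1 library (exact binomial 95% interval 17.4 to 33.9%) and 19.8% in the mock library (14.7 to 25.8%). These intervals overlap, and among CD4 cells alone the order was reversed, with 33.3% in the PTIR1 library and 39.7% in the mock library. The gate left 87 other T cells in the PTIR1 library and 170 in the mock library, beside 596 PTIR1 and 489 mock NK cells. The markers not used by the gate fitted a T cell identity: all 5 of Trac, Trbc2, Lck, Cd2 and Lat were present, at a summed 2033 CPM (UMIs per 1000000 UMIs of the gated cells) in PTIR1 Foxp3 positive T cells and 2775 CPM in mock ones. Cd8a had 0 UMIs in the Foxp3 positive T cells of both libraries, Cd8b1 had 3 in each, and Trdc, the gamma delta T cell receptor gene, also had 0. Macrophage genes were present too. The 7 macrophage gate genes summed to 1141 CPM in PTIR1 Foxp3 positive T cells and 1399 CPM in mock ones, against 18247 and 21844 CPM in the myeloid cells of the same libraries, but the gates themselves limit these genes in T cells. The part of macrophage RNA in the levels given for Foxp3 positive T cells was not tested.

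With 1 library per genotype there is no replicate, so no significance test was made. Intervals are 95% counting intervals and cover counting error only. A gene is called here when its CPM ratio passes 2-fold in either direction with an interval that excludes 1, among genes with at least 20 UMIs over the sets compared. The share of all measured genes called in the same comparison is given with the counts. UMI counts from 3′ ends do not compare levels between genes, so levels are compared between cells for 1 gene at a time.

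**Figure D1:**
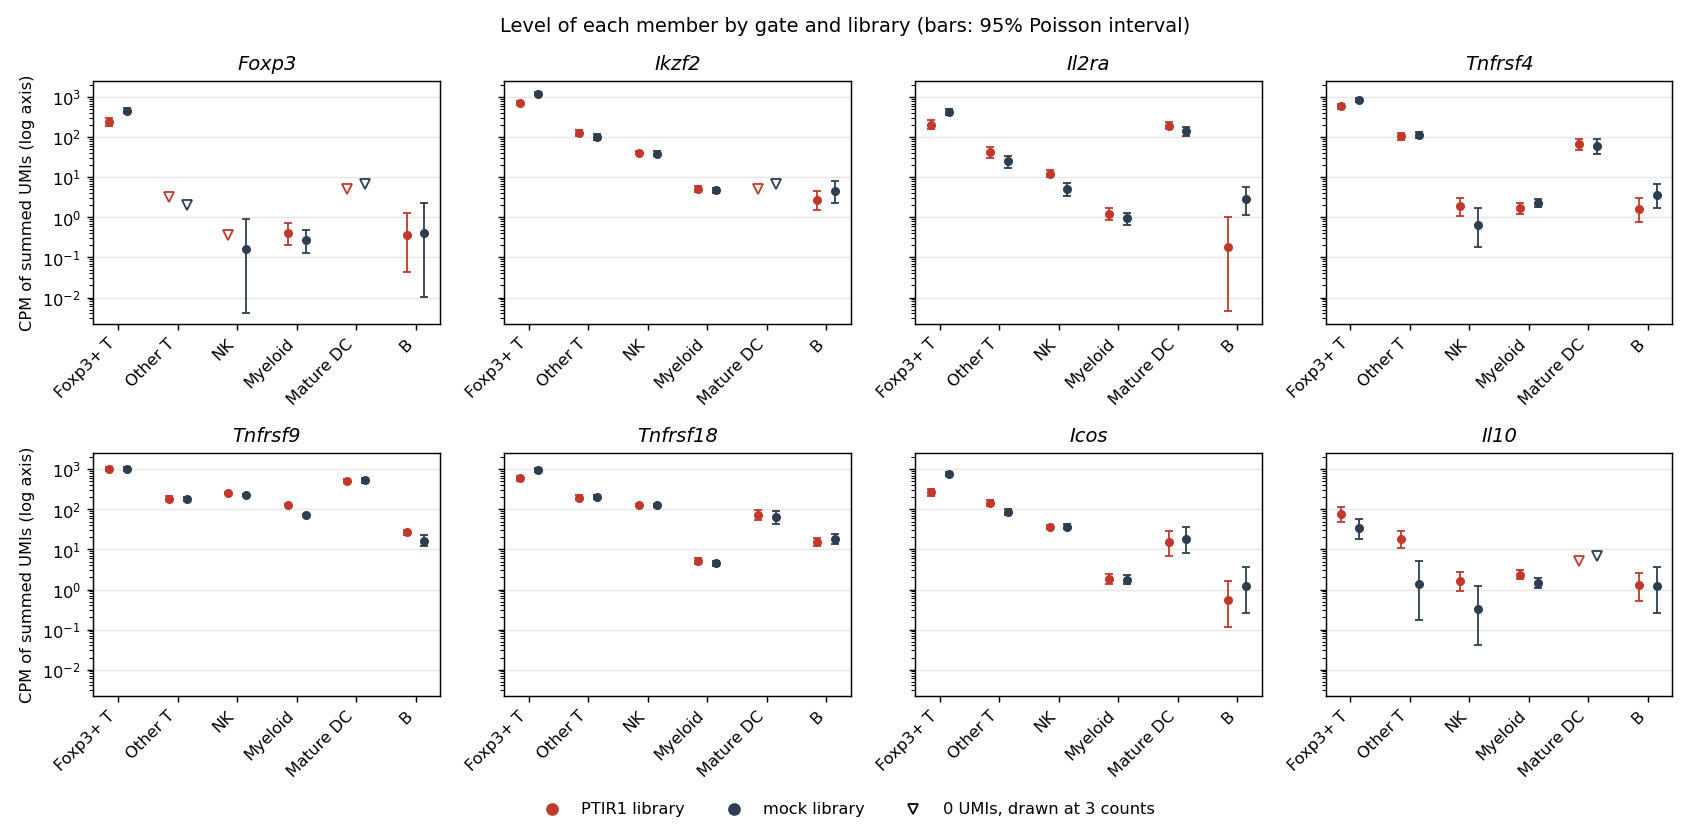
Level of each of the 8 genes (CPM of summed UMIs, log axis) in Foxp3 positive T, other T, NK, myeloid, mature dendritic (DC) and B cells, with the PTIR1 library at the left of each pair and the mock library at the right. Bars are 95% Poisson intervals, and open triangles mark 0 UMIs, drawn at the level of 3 counts. In both libraries the 7 genes other than Foxp3 have their highest point in Foxp3 positive T cells, with Il2ra of PTIR1 mature DC (198 CPM) closest to it (209 CPM). The place of Foxp3 is set by the gates, which require it in Foxp3 positive T cells and exclude it from other T cells.

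Foxp3, encoded on the X chromosome (chrX:7573644-7595245, plus strand, GRCm38, GENCODE annotation), was seen in few cells. A Foxp3 UMI was found in 95 kept cells of the PTIR1 library and 96 of the mock library. Of these, 29 PTIR1 and 42 mock cells fell in the Foxp3 positive T gate, and 38 and 36 were cells that met several gates. Its level in gated Foxp3 positive T cells was 239.9 CPM in the PTIR1 library (189.6 to 299.4) and 461 CPM in the mock library (396 to 534). Since the gate itself requires a Foxp3 UMI and depth decides who passes, this is a description only. Within the gate, 9 of 29 PTIR1 cells and 8 of 42 mock cells rested on a single Foxp3 UMI, and 14 and 25 held 3 or more. The highest cell had 6 Foxp3 UMIs in the PTIR1 library and 15 in the mock library. NK cells held 0 Foxp3 UMIs in the PTIR1 library, where 3 counts would be 0.355 CPM, and 1 in the mock library. In myeloid cells the level was 0.416 CPM (11 UMIs in 11 cells) in the PTIR1 library and 0.271 CPM (10 UMIs in 10 cells) in the mock library. Neither was far from B cells, which should lack the gene and had 0.367 CPM in the PTIR1 library and 0.408 CPM in the mock library. The Foxp3 locus overlaps 4 other annotated genes, 1 of them, Flicr, on the same strand, and the sources used here do not say if counting used strand.

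Ikzf2 encodes Helios, a zinc finger transcription factor that stabilises the regulatory T cell program (chr1:69531214-69687245, minus strand). Its level was 735 CPM in PTIR1 Foxp3 positive T cells and 127 CPM in PTIR1 other T cells. The mock library had 1242 CPM in Foxp3 positive T cells and 103 CPM in other T cells. Ikzf2 was therefore 5.77-fold higher in Foxp3 positive T cells of the PTIR1 library (4.61 to 7.25) and 12.1-fold higher in those of the mock library (10.01 to 14.6). NK cells followed, at 41.8 CPM in the PTIR1 library and 39.5 CPM in the mock library. Mature DCs (Ccr7, Fscn1 and Ccl22 positive) held 0 Ikzf2 UMIs in both libraries. Outside lymphocytes the gene appeared in mast cells or basophils, at 62.4 CPM in 72 PTIR1 cells and 91.9 CPM in 111 mock cells. Myeloid cells held 5.11 CPM in the PTIR1 library and 4.75 CPM in the mock library, near the 2.75 and 4.49 CPM of B cells.

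Il2ra, the alpha chain of the interleukin 2 receptor (CD25; chr2:11642807-11693193, plus strand), had 209 CPM in PTIR1 Foxp3 positive T cells and 433 CPM in mock ones. Other T cells held 43.2 CPM in the PTIR1 library and 25.04 CPM in the mock library. The ratio was 4.84 in the PTIR1 library (3.23 to 7.34) and 17.3 in the mock library (12.0 to 25.5), the widest gap between libraries among the ratios that were called in both. Regulatory T cells were not its sole source. Mature DCs carried 198 CPM in the PTIR1 library, where the ratio of Foxp3 positive T cells over mature DCs was 1.06 (0.772 to 1.44), and 142 CPM in the mock library, where it was 3.05 (2.26 to 4.16). Of all Il2ra UMIs in kept cells, Foxp3 positive T cells held 9.09% in the PTIR1 library and 25% in the mock library, and mature DCs held 15.4% and 9.08%. Cells of several gates, which were left out, held 42.2% and 42.4%. The NK level was lower, at 12.53 CPM in the PTIR1 library and 5.14 CPM in the mock library.

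The 3 tumour necrosis factor receptors differed in how far they spread beyond T cells. Tnfrsf4 (OX40, chr4:156013843-156016612, plus strand) marks recently activated T cells and was the most restricted. It had 603 CPM in PTIR1 Foxp3 positive T cells and 855 CPM in mock ones, against 106 and 115 CPM in other T cells of the same libraries. NK cells held 1.89 CPM in the PTIR1 library (16 UMIs in 596 cells) and 0.663 CPM in the mock library (4 UMIs in 489 cells). The ratio of Foxp3 positive T cells over other T cells was 5.69 in the PTIR1 library (4.44 to 7.33) and 7.41 in the mock library (6.13 to 8.98). Among the NK, myeloid, B, mast and mature DC gates, only mature DCs exceeded 50 CPM, with 67.0 CPM in the PTIR1 library and 60.5 CPM in the mock library. In the mock library 65.4% of those mature DC UMIs lay in 1 cell.

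Tnfrsf18 (GITR, chr4:156026164-156028895, plus strand) lies 9551 bases beyond Tnfrsf4 on the same strand. It was shared with NK cells. Its level was 606 CPM in PTIR1 Foxp3 positive T cells and 953 CPM in mock ones. Other T cells held 198 CPM in the PTIR1 library and 208 CPM in the mock library, and NK cells 129 and 126 CPM. The ratio of Foxp3 positive T cells over other T cells was the smallest of the called ones in both libraries, at 3.06 in the PTIR1 library (2.49 to 3.77) and 4.58 in the mock library (3.92 to 5.36). Myeloid cells held 5.22 CPM in the PTIR1 library and 4.56 CPM in the mock library, below the 15.4 and 18.8 CPM of B cells.

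Tnfrsf9 (4-1BB, chr4:150914562-150946102, plus strand), a costimulatory receptor of T and NK cells, was the broadest of the 3. Its level in Foxp3 positive T cells was 1015 CPM in the PTIR1 library and 1025 CPM in the mock library. Mature DCs came next, with 507 CPM in the PTIR1 library and 533 CPM in the mock library. NK cells followed at 259 and 226 CPM, above the 186 and 182 CPM of other T cells. The ratio of NK over other T cells was 1.39 in the PTIR1 library (1.19 to 1.64) and 1.25 in the mock library (1.09 to 1.43). Foxp3 positive T cells exceeded other T cells 5.46-fold in the PTIR1 library (4.53 to 6.61) and 5.65-fold in the mock library (4.82 to 6.63). With T cells of several gates counted in, these ratios were 1.71, no longer called, in the PTIR1 library and 2.36 in the mock library. Myeloid cells held 130.02 CPM in the PTIR1 library and 74.4 CPM in the mock library. As those cells are many, they carried 29.3% of all Tnfrsf9 UMIs of the PTIR1 library and 29.5% of the mock library, while Foxp3 positive T cells carried 2.82% and 4.27%. Cells of several gates, which were left out, carried 25.9% and 26.7%.

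Promoter windows are shown for the 3 tumour necrosis factor receptor genes and for Foxp3, because interleukin 2 acts through STAT factors and antigen receptors through NFAT and AP-1. RefSeq windows (GRCm38.p6) were at hand for 5 of the 8 genes, with 7 start sites in all. The 250 bases before each start were searched on both strands for STAT (TTCNNNGAA), an NF-kB consensus, AP-1 (TGANTCA), NFAT (GGAAAA) and forkhead (TGTTTAC) letters. Capitals mark a match. The windows below lie on the plus strand, and the second listed start of Tnfrsf9 and of Foxp3 is shown.
Tnfrsf18, chr4:156026072-156026321: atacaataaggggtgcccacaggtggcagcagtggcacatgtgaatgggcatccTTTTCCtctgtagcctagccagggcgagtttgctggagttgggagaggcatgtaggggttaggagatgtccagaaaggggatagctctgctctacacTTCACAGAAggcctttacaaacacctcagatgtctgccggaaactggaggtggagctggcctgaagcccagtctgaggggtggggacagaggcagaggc
Tnfrsf9, chr4:150927749-150927998: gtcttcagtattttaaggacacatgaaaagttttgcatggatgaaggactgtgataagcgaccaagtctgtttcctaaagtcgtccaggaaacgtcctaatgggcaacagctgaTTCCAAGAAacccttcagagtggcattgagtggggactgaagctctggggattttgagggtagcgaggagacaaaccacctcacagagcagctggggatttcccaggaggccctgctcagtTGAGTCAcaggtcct
Foxp3, chrX:7580233-7580482: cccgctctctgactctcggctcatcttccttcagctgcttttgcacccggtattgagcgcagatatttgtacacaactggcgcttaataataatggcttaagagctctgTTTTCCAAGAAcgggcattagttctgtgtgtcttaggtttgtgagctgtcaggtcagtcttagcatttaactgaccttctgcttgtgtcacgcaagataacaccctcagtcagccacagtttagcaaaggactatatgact
Tnfrsf4, chr4:156013445-156013694: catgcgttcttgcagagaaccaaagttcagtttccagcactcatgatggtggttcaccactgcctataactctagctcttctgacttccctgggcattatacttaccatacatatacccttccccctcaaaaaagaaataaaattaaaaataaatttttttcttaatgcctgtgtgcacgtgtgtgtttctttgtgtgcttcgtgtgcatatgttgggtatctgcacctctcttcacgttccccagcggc
A STAT match lay 99 bases before the Tnfrsf18 start, 136 bases before the Tnfrsf9 start and 139 bases before the Foxp3 start, where it overlaps an NFAT match. The STAT letters occur in 7.02% of all 32851 RefSeq windows of that length and in 3 of these 7. NFAT letters occur in 20.4% of all windows and in 3 of the 7, and AP-1 letters in 6.75% and in 1, the Tnfrsf9 window printed. The NF-kB letters (0.356% of all windows) and the forkhead letters (3.17%) were in 0 of the 7. Only that 1 form of the NF-kB site was searched, so sites with other letters were not counted. The printed Tnfrsf9 window holds the near form ggggatttcc, which was not searched for and stays in lower case. The Tnfrsf4 window, the Il2ra window and the first listed Foxp3 window held none of the 5. The printed Tnfrsf9 and Foxp3 windows lie inside the gene spans given in this text, and the Tnfrsf18 window overlaps the start of its span. A match describes these letters and says nothing about binding in these cells.

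Icos, which takes part in T cell help and in the upkeep of activated regulatory T cells (chr1:60977927-61000320, plus strand), was the gene whose pattern differed most between libraries. Its level in Foxp3 positive T cells was 271 CPM in the PTIR1 library and 760.0 CPM in the mock library. Other T cells held 144 CPM in the PTIR1 library and 86.3 CPM in the mock library. The ratio of Foxp3 positive T cells over other T cells was 1.88 in the PTIR1 library (1.42 to 2.48), which was not called, and 8.81 in the mock library (7.12 to 10.96). With CD4 positive cells alone in both sets the PTIR1 ratio was 0.924, and with T cells of several gates counted in it was 2.39. NK cells held 36.4 CPM in the PTIR1 library and 37.3 CPM in the mock library.

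Il10, the secreted anti-inflammatory cytokine (chr1:131019845-131024974, plus strand), was the sparsest member. Only 4 of 29 PTIR1 Foxp3 positive T cells and 7 of 42 mock ones held any UMI of it. They gave 76.9 CPM (25 UMIs) in the PTIR1 library and 33.5 CPM (13 UMIs) in the mock library. A single cell carried 40% of those UMIs in the PTIR1 library and 46.2% in the mock library. Other T cells held 18.4 CPM (17 UMIs in 4 cells) in the PTIR1 library and 1.39 CPM (2 UMIs in 1 cell) in the mock library. The ratio was 4.19 in the PTIR1 library (2.17 to 8.26), and the mock library had too few UMIs to be measured. Myeloid cells had 2.35 CPM in the PTIR1 library and 1.46 CPM in the mock library. They held 23.0% and 34.8% of all Il10 UMIs, and gated Foxp3 positive T cells 9.26% and 8.39%. Cells of several gates, which were left out of both, held 44.1% and 32.3%. Those cells included 37 PTIR1 and 33 mock cells with a Foxp3 UMI and at least 2 Cd3 UMIs.

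Counting over the 7 genes other than Foxp3, 6 of 7 were called higher in Foxp3 positive T cells than in other T cells of the PTIR1 library, all but Icos. The background there was 12.5% of 6775 measured genes called in either direction and 6.38% called higher. In the mock library all 6 measured genes were called higher, against a background of 13.6% of 7938 genes in either direction and 7.19% higher. On the log2 scale their median ratio was 2.27 in the PTIR1 library and 3.01 in the mock library, beside 0.09 and 0.12 over all measured genes of each comparison. The genes were listed because regulatory T cells are known to express them, and with earlier results of these data known. These counts therefore describe only the size of that difference here.

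**Figure D2:**
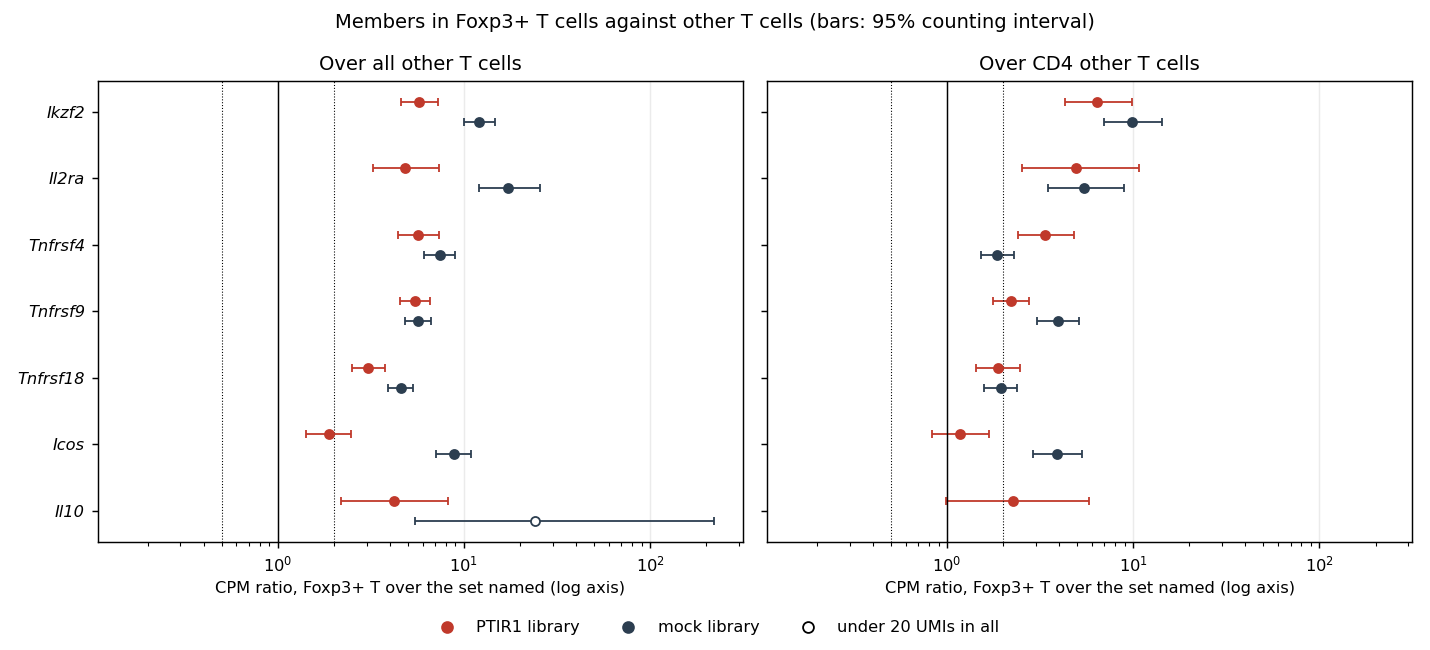
CPM ratio (log axis) of Foxp3 positive T cells over all other T cells (left panel) and over CD4 other T cells (right panel) for the 7 genes other than Foxp3, with the PTIR1 library above the mock library. Bars are 95% counting intervals, dotted lines mark a 2-fold difference, open points rest on under 20 UMIs, and a set with 0 UMIs has no point. Against CD4 cells the Tnfrsf4 ratio is 3.37 in the PTIR1 library and 1.86 in the mock library, and that of Icos 1.18 and 3.89.

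Other T cells mix CD4, CD8 and further cells, in different proportions in each library: 22 CD4 and 14 CD8 cells of 87 in the PTIR1 library, and 38 CD4 and 59 CD8 cells of 170 in the mock library, the rest having UMIs of neither or of both. Regulatory T cells are CD4 cells as a rule, and 11 of 29 PTIR1 and 25 of 42 mock Foxp3 positive T cells had Cd4 UMIs without Cd8a or Cd8b1. Against CD4 other T cells Ikzf2 was 6.39-fold higher in the PTIR1 library (4.28 to 9.89) and 9.79-fold higher in the mock library (6.94 to 14.2). Il2ra was 4.91-fold higher in the PTIR1 library (2.51 to 10.7) and 5.43-fold higher in the mock library (3.47 to 8.90), so its gap between the libraries was smaller here. Tnfrsf9 was 2.20-fold higher in the PTIR1 library (1.77 to 2.77) and 3.93-fold higher in the mock library (3.05 to 5.13). Tnfrsf18 was not called in either, at 1.87 in the PTIR1 library (1.43 to 2.47) and 1.93 in the mock library (1.59 to 2.37). Tnfrsf4 was called in the PTIR1 library, at 3.37 (2.40 to 4.82), but not in the mock library, at 1.86 (1.51 to 2.30). Icos again parted the libraries, with 1.18 in the PTIR1 library (0.829 to 1.68) and 3.89 in the mock library (2.90 to 5.29). These comparisons called 10.4% of 4035 genes in the PTIR1 library and 9.74% of 4650 genes in the mock library.

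CD4 and CD8 other T cells themselves differed. Tnfrsf4 had 179 CPM in PTIR1 CD4 other T cells and 64.9 CPM in PTIR1 CD8 other T cells, a ratio of 2.76 (1.28 to 6.80). In the mock library it had 460.1 CPM in CD4 and 13.8 CPM in CD8 other T cells, a ratio of 33.3 (15.7 to 84.5). Icos was higher in CD4 than in CD8 other T cells of both libraries, 3.15-fold in the PTIR1 library (1.54 to 7.26) and 3.96-fold in the mock library (2.42 to 6.64). Tnfrsf9 was 2.03-fold higher in CD4 cells of the PTIR1 library (1.33 to 3.19), while its ratio was 1.01 in the mock library (0.746 to 1.35). Ikzf2 was lower in CD4 than in CD8 cells of the PTIR1 library, 0.473 (0.270 to 0.823), with 40% of the CD8 UMIs in 1 cell. The mock ratio of Ikzf2 was 1.09 (0.695 to 1.68). The background of these comparisons was 10.1% of 2653 genes in the PTIR1 library and 9.41% of 5082 in the mock library.

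Comparing the libraries within Foxp3 positive T cells, Icos and Il2ra were called lower in the PTIR1 library, and Il10 was called higher. Icos was 2.81-fold lower in PTIR1 cells (2.21 to 3.61), with 88 UMIs in the PTIR1 library and 295 in the mock library. Il2ra was 2.07-fold lower in PTIR1 cells (1.55 to 2.79), from 68 PTIR1 and 168 mock UMIs, so close to the 2-fold limit that scaling to the median gene (a ratio of 0.501) or a gate of at least 2 Foxp3 UMIs (0.520) ended the call. Foxp3, whose level the gate shapes, was 1.92-fold lower (1.47 to 2.54). Ikzf2 was 1.69-fold lower (1.44 to 1.98), Tnfrsf18 1.57-fold lower (1.32 to 1.88) and Tnfrsf4 1.42-fold lower (1.19 to 1.70), and none of these passed 2-fold. The ratio of Tnfrsf9 was 0.990 (0.853 to 1.15). Il10 was 2.30-fold higher in PTIR1 cells (1.13 to 4.89), on the few cells described above. So 3 of 8 genes were called, against a background of 6.14% of 4955 genes in either direction, 3.21% lower and 2.93% higher.

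Per cell, the medians ran the same way for most of these genes. The median Icos level over cells was 272 CPM in 29 PTIR1 cells, with a highest cell of 2622 CPM, and 683 CPM in 42 mock cells, with a highest cell of 4372 CPM. For Ikzf2 the median was 668 CPM in PTIR1 cells and 1439 CPM in mock cells. For Il2ra it was 214 CPM in PTIR1 cells and 327 CPM in mock cells. The median of Tnfrsf9 was 942 CPM in PTIR1 cells and 966 CPM in mock cells. The spread over cells overlapped widely between the libraries for each gene, and the lowest cell had 0 UMIs of each of these 4 in both.

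Other values moved with the library in the same cells. Trac, a T cell receptor chain that is no member of the set, had 486 CPM in PTIR1 Foxp3 positive T cells and 814 CPM in mock ones. The 5 T cell markers summed to 2033 CPM in PTIR1 cells and 2775 CPM in mock cells, the 7 macrophage gate genes to 1141 and 1399 CPM, and the immediate early genes to 4437 and 2976 CPM. Median depth was 10615 UMIs in PTIR1 cells and 6779.5 UMIs in mock cells. Their part in the lower levels was not tested. Among cells with at least 5000 UMIs (20 PTIR1 and 27 mock cells) the Icos ratio was 0.300 and that of Il2ra 0.492, while that of Il10 was 1.05. With CD4 positive cells alone (11 PTIR1 and 25 mock cells) the Icos ratio was 0.277, but Il2ra (0.509) and Il10 (1.57) were no longer called. With T cells that met several gates counted in, the ratios were 0.369 for Icos, 0.620 for Il2ra and 1.82 for Il10, and of the 8 genes Icos alone was called.

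**Figure D3:**
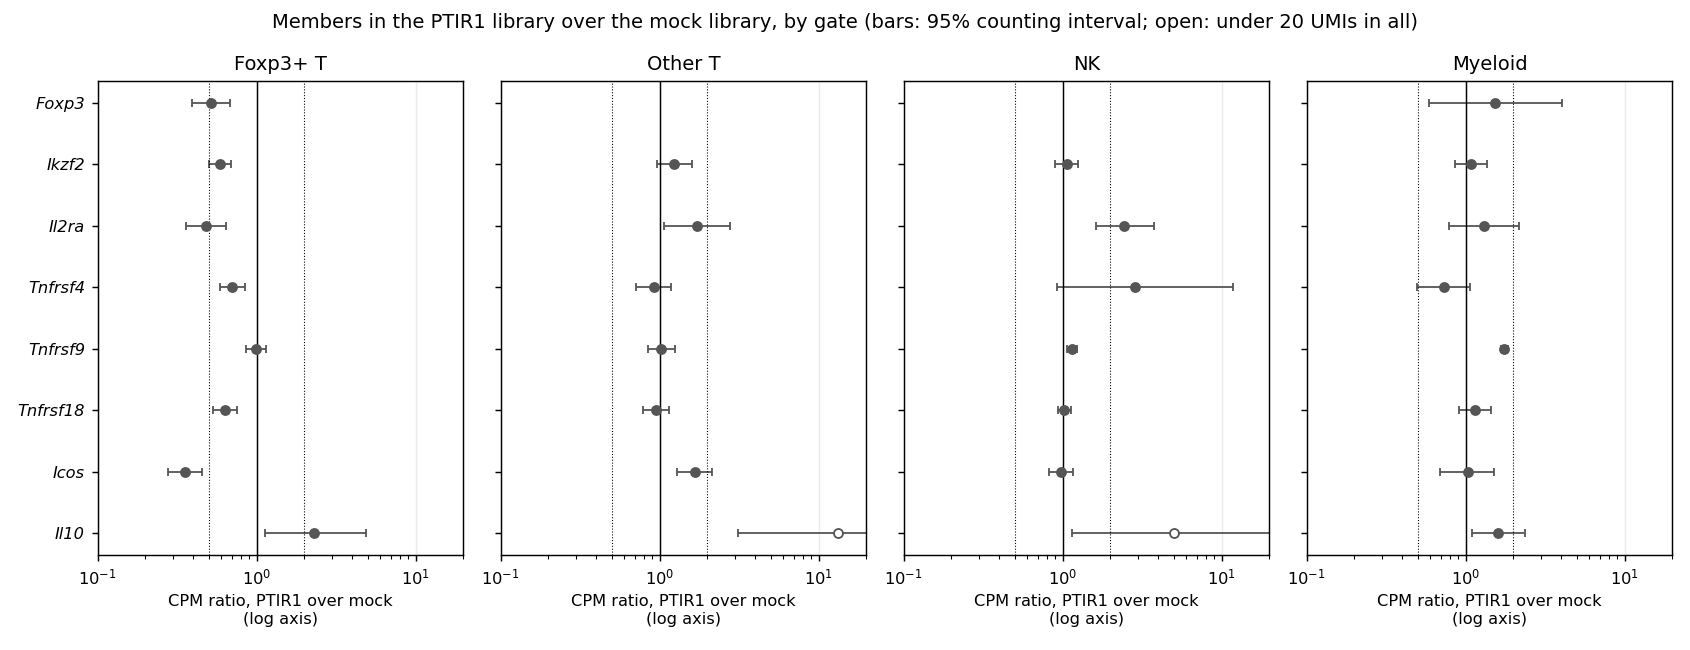
CPM ratio (log axis) of the PTIR1 library over the mock library for each gene in Foxp3 positive T, other T, NK and myeloid cells. Bars are 95% counting intervals, dotted lines mark a 2-fold difference, open points rest on under 20 UMIs, and a set with 0 UMIs in either library has no point. In Foxp3 positive T cells the points of 6 of the 8 genes lie below 1 with their intervals, that of Tnfrsf9 lies at 0.990 and that of Il10 at 2.30.

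In other T cells no gene was called between the libraries (0 of the 6 measured, against a background of 6.78% of 8668 genes). Il2ra was 1.73-fold higher in PTIR1 cells (1.07 to 2.79) and Icos 1.67-fold higher (1.29 to 2.15), the opposite direction to that in Foxp3 positive T cells. The other 4 measured genes had ratios between 0.917 (Tnfrsf4, 0.707 to 1.18) and 1.24 (Ikzf2, 0.964 to 1.59). Among other T cells with at least 5000 UMIs the Il2ra ratio was 2.60. Il10 had 17 UMIs in PTIR1 other T cells and 2 in mock ones, too few to be measured. The makeup of the set also differed, as given above. Among CD4 other T cells alone, Il2ra had a ratio of 0.535 (0.226 to 1.18) and Icos of 1.18 (0.792 to 1.75). There Tnfrsf4 was called lower, with 179 CPM in PTIR1 cells and 460.1 CPM in mock cells and a ratio of 0.389 (0.268 to 0.556), and 35.7% of the PTIR1 UMIs and 25.2% of the mock UMIs lay in 1 cell. The background of that comparison was 8.86% of 3668 genes.

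In NK cells Il2ra was called higher in the PTIR1 library, 2.44-fold (1.62 to 3.76), from 106 UMIs in 596 PTIR1 cells and 31 UMIs in 489 mock cells. It was the single gene called of 6 measured, against a background of 3.73% of 11672 genes. A UMI of Il2ra was seen in 52 PTIR1 NK cells and 20 mock NK cells. At 1000 UMIs per cell it was seen in 2.03% of PTIR1 NK cells (1.05 to 3.51%) and 0.415% of mock NK cells (0.0503 to 1.49%), and in 0 of 811 PTIR1 B cells (3 counts would be 0.370%) and 0.480% of mock B cells. These thinned shares rest on 12 PTIR1 and 2 mock NK cells. At 2000 UMIs per cell the shares were nearer, with 1.60% of 561 PTIR1 NK cells (0.736 to 3.02%) and 0.891% of 449 mock ones (0.243 to 2.27%). The intervals of the NK cells overlap between the libraries at both depths. Before thinning, 8.72% of PTIR1 and 4.09% of mock NK cells had an Il2ra UMI, against 0.120% of PTIR1 and 1.41% of mock B cells. Fibroblast genes summed to 170.1 CPM in PTIR1 NK cells and 13.6 CPM in mock ones, and mature DC check genes to 3.31 and 2.49 CPM, and their part in the Il2ra difference was not tested. With each cell weighted alike the ratio was 1.96 and no longer called. Tnfrsf9 was 1.15-fold higher in PTIR1 NK cells (1.07 to 1.23). Tnfrsf4, with 16 UMIs in PTIR1 and 4 in mock NK cells, had a ratio of 2.85 (0.920 to 11.7). The ratios of Ikzf2, Tnfrsf18 and Icos were between 0.976 and 1.06, with intervals from 0.819 to 1.25.

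Myeloid cells added Tnfrsf9 to the differences between libraries. It was 1.75-fold higher in PTIR1 myeloid cells (1.66 to 1.84), below the 2-fold limit, so 0 of 8 genes were called, against a background of 5.71% of 13159 genes. The myeloid gate itself differed in depth, with a median of 7485 UMIs in PTIR1 cells and 1355 UMIs in mock cells. At 1000 UMIs per cell, 10.5% of 2248 PTIR1 myeloid cells (9.26 to 11.8%) and 6.39% of 3257 mock ones (5.57 to 7.28%) had a Tnfrsf9 UMI. Most of these UMIs lay in myeloid cells that were neither macrophages nor neutrophils by their gates, with 140.99 CPM in 2138 PTIR1 cells and 74.6 CPM in 4376 mock cells, a ratio of 1.89 (1.78 to 2.0005). By comparison, macrophages (at least 2 C1q UMIs) had 84.8 CPM in the PTIR1 library and 65.1 CPM in the mock library, a ratio of 1.30 (1.14 to 1.49). Neutrophils had 131 CPM in the PTIR1 library and 137 CPM in the mock library, a ratio of 0.955 (0.776 to 1.18). Macrophages also held more UMIs of Tnfrsf18 and Icos in the PTIR1 library, with 31 Tnfrsf18 UMIs in the PTIR1 library and 22 in the mock library, and 16 and 7 Icos UMIs, giving ratios of 2.30 (1.29 to 4.17) and 3.73 (1.45 to 10.7). Both rest on levels under 10 CPM, and 5.8% of 10959 genes were called there. Il10 was 1.60-fold higher in PTIR1 myeloid cells (1.09 to 2.35). Calls appeared under 2 alternatives: ratios were 4.32 for Il10 and 0.428 for Il2ra with each cell weighted alike, and 2.51 for Il2ra and 2.21 for Icos among cells with at least 5000 UMIs.

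Thinning each gated cell to 1000 UMIs set the counts that were read at equal depth. The gates were applied before thinning, so which cells belong to each set still depends on their full depth. Icos was then seen in 34.5% of 29 PTIR1 Foxp3 positive T cells (17.9 to 54.3%) and 63.4% of 41 mock ones (46.9 to 77.9%). Before thinning the shares were 89.7% of PTIR1 cells and 90.5% of mock cells. Tnfrsf18 was seen in 37.9% of PTIR1 cells (20.7 to 57.7%) and 58.5% of mock cells (42.1 to 73.7%), and Ikzf2 in 58.6% (38.9 to 76.5%) and 70.7% (54.5 to 83.9%). For Il2ra the shares were 27.6% in the PTIR1 library and 36.6% in the mock library, for Tnfrsf4 41.4% and 53.7%, and for Tnfrsf9 55.2% and 53.7%. All of these intervals overlap between the libraries. At 2000 UMIs per cell (29 PTIR1 and 39 mock cells) the Icos intervals did not overlap, with 37.9% of PTIR1 cells (20.7 to 57.7%) and 82.1% of mock cells (66.5 to 92.5%). The order of 2 other genes turned at that depth: Tnfrsf18 was seen in 72.4% of PTIR1 and 69.2% of mock cells, and Tnfrsf9 in 62.1% and 82.1%. Other T cells lay lower for each of these 6 genes, with shares between 8.43% (Il2ra) and 27.7% (Tnfrsf18) of 83 PTIR1 cells and between 3.16% (Il2ra) and 22.2% (Tnfrsf18) of 158 mock cells. In B cells, with median depths of 4554 UMIs in the PTIR1 library and 4294 in the mock library, the shares were at most 1.85% in the PTIR1 library and 2.88% in the mock library, both for Tnfrsf18. Il10 was seen in 1 of 29 PTIR1 and 0 of 41 mock Foxp3 positive T cells, where 3 counts would be 7.32% of cells with a UMI.

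**Figure D4:**
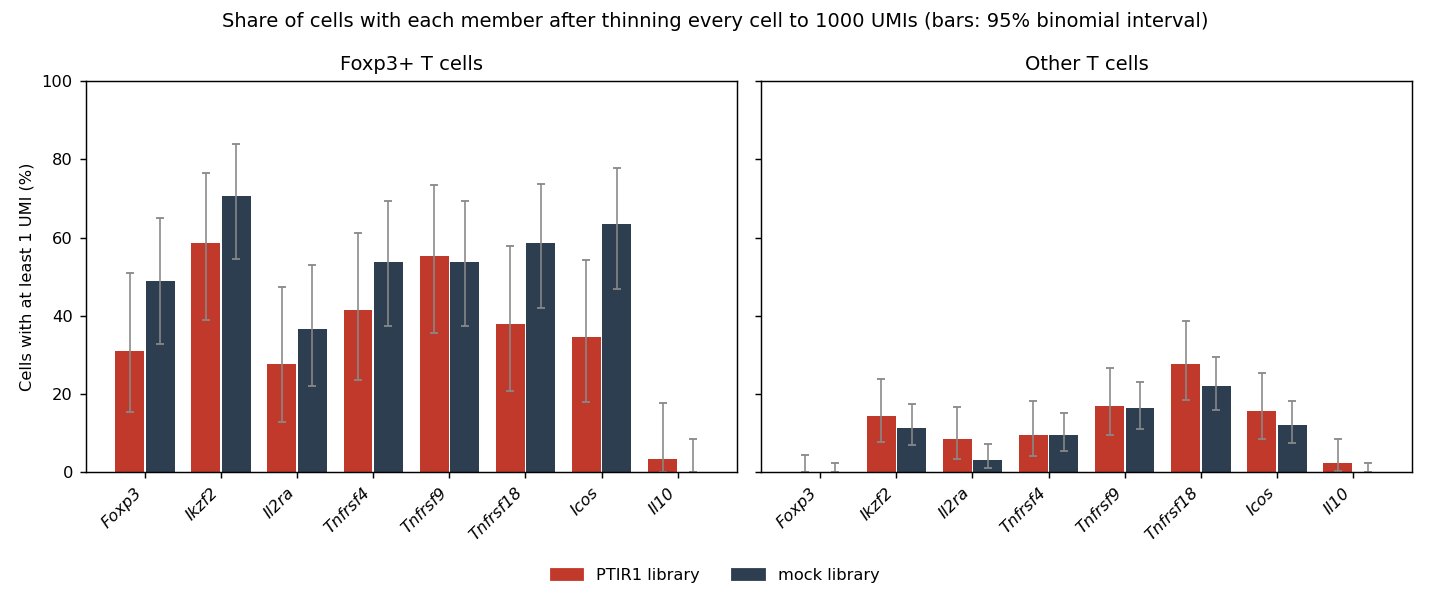
Share of cells (%) with at least 1 UMI of each gene after thinning each cell to 1000 UMIs, in Foxp3 positive T cells (left panel) and other T cells (right panel), with the PTIR1 bar left of the mock bar. Error bars are exact binomial 95% intervals. Icos has bars of 34.5% and 63.4% in Foxp3 positive T cells of the PTIR1 and mock libraries, and of 15.7% and 12.0% in other T cells.

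Several of the other genes were found together in single Foxp3 positive T cells. At 1000 UMIs per cell a PTIR1 Foxp3 positive T cell had a median of 3 of the 7 other genes (mean 2.59, range 1 to 5) and a mock one a median of 4 (mean 3.37, range 0 to 6). At least 3 were seen in 55.2% of PTIR1 cells (35.7 to 73.6%) and 73.2% of mock cells (57.1 to 85.8%). Other T cells reached that in 14.5% of PTIR1 cells (7.70 to 23.9%) and 6.96% of mock cells (3.53 to 12.1%). In NK cells it was 0.845% of 592 PTIR1 and 0.207% of 482 mock cells. None of 811 PTIR1 and 417 mock B cells did. Other T cells with 3 or more of these genes and no Foxp3 UMI numbered 12 in the PTIR1 library and 11 in the mock library.

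**Figure D5:**
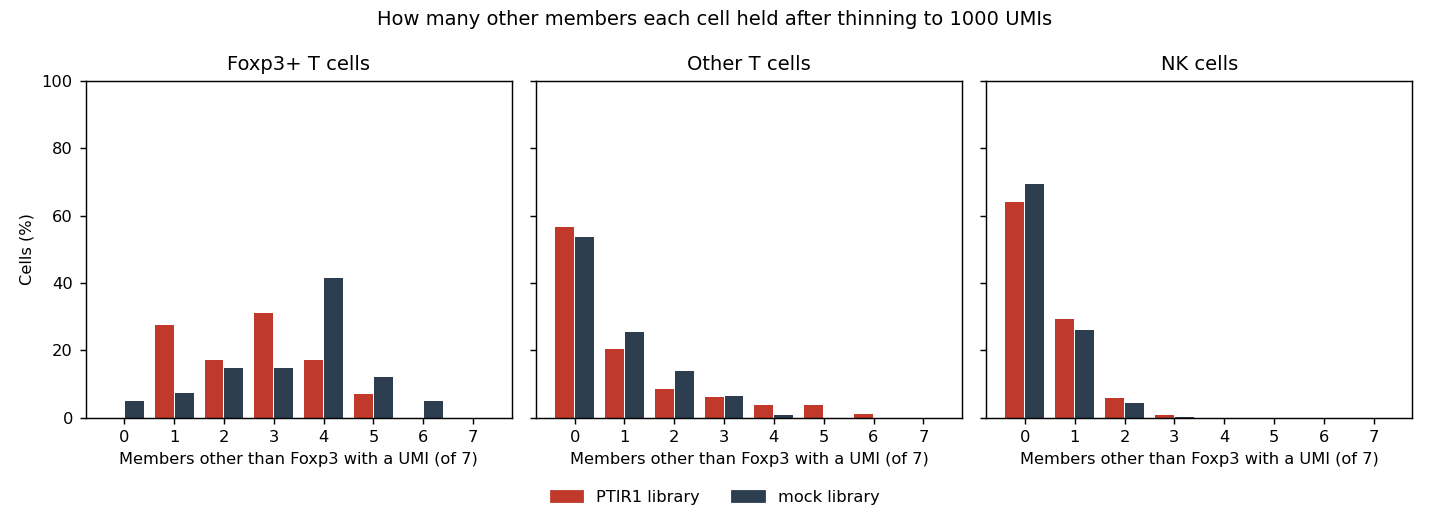
Share of cells (%) by how many of the 7 genes other than Foxp3 had a UMI after thinning to 1000 UMIs per cell, in Foxp3 positive T, other T and NK cells, with the PTIR1 bar left of the mock bar. Foxp3 positive T cells peak at 3 genes in the PTIR1 library (31.0%) and at 4 in the mock library (41.5%), and NK cells at 0 (64.0% and 69.5%).

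Across 11 cell sets in each library (22 points), the closest pair of the 8 genes was Tnfrsf18 and Icos, with a Pearson r of 0.946 on log2(CPM + 1), then Tnfrsf4 and Icos with 0.862. The weakest were Il2ra and Ikzf2, with 0.296. Mature DCs held Il2ra with 0 Ikzf2 UMIs, and mast cells or basophils held Ikzf2 with 0 Il2ra UMIs, in both libraries. Points of 1 library share depth, and some sets hold few cells, so these are descriptions. Outside the set, the genes nearest to Tnfrsf18 were Vgll4 (0.950) and Dkkl1 (0.948). The nearest to Icos were Dkkl1 (0.936) and Zc3hav1 (0.925), to Ikzf2 Sytl1 (0.956) and Rnf125 (0.934), and to Il2ra Aebp2 (0.902) and Nrip1 (0.889). Those nearest to Tnfrsf4 were Ikzf4 (0.897), the gene of the Helios relative Eos, and Pdcd1 (0.886), the gene of the checkpoint receptor PD-1, and to Tnfrsf9 Crem (0.876) and Fam110a (0.873). Foxp3 was nearest to Gm12503 (0.908), Myo3b (0.891), Ccr3 (0.887), Kif5a (0.869) and Gm48529 (0.819), and Il10 to Gm10131 (0.879) and Tnfrsf8 (0.855). These last had few UMIs: Gm12503 stood at 3.08 CPM in PTIR1 and 2.58 CPM in mock Foxp3 positive T cells, which is 1 UMI each. The pattern of Foxp3 was also set in part by the gates, which require it in Foxp3 positive T cells and exclude it from other T cells.

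Genes around the set were read from 4 lists, which were also chosen with earlier results of these data known. Their counts are therefore descriptions. Of 30 effector regulatory T cell genes, 14 of 26 measured were called higher in Foxp3 positive T cells than in other T cells of the PTIR1 library and none lower, with a median ratio of 1.11 on the log2 scale, where 6.38% of all genes were called higher. In the mock library 14 of 27 were called higher and none lower, with a median of 1.06, where 7.19% of all genes were called higher. Klrg1, a receptor of terminally differentiated lymphocytes, was 10.9-fold higher in the PTIR1 library (5.69 to 22.6) and 49.1-fold higher in the mock library (18.1 to 187). Ctla4, the inhibitory receptor that competes with Cd28, was 4.08-fold higher in the PTIR1 library (3.21 to 5.19) and 6.87-fold higher in the mock library (5.34 to 8.89). Itgae, the integrin chain CD103, was 7.76-fold (3.78 to 17.2) and 12.96-fold (5.06 to 39.3) higher. Cd83 (6.26-fold) and Ebi3 (6.91-fold), a subunit of interleukin 35, followed in the PTIR1 library, and Ikzf4 (9.16-fold) and Gzmb (3.46-fold), a granzyme, in the mock library. Against CD4 other T cells, fewer effector genes were called. In the PTIR1 library 7 of 23 measured were higher and 1 lower, with a log2 median of 0.80. In the mock library 8 of 23 were higher and none lower, with a median of 0.70. Over all genes 10.4% and 9.74% were called there in either direction.

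The resting T cell list ran the other way. Of 9 measured genes in the PTIR1 library, 3 were called lower and 1 higher, and of 10 in the mock library 5 were called lower and none higher. Over all measured genes 6.11% were called lower in the PTIR1 comparison and 6.44% in the mock one. Tcf7, a factor of naive and memory T cells, had 2 UMIs in PTIR1 Foxp3 positive T cells and 60 in PTIR1 other T cells, a ratio of 0.0949 (0.0112 to 0.358). In mock Foxp3 positive T cells it had 0 UMIs, against 106 in mock other T cells. Lef1 was lower in both libraries, with ratios of 0.459 (0.210 to 0.902) and 0.322 (0.162 to 0.581). Satb1 (0.381) was called lower in the PTIR1 library, and Bach2 (0.0882, on 1 UMI), S1pr1 (0.376) and Ccr7 (0.417) in the mock library. Il7r, the interleukin 7 receptor, was 2.24-fold higher in PTIR1 Foxp3 positive T cells (1.73 to 2.89).

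Signalling partners differed less. Of the 16 genes of tumour necrosis factor receptor signalling, 3 were called higher in each library and none lower, beside 6.38% of all genes called higher in the PTIR1 library and 7.19% in the mock library. Traf1, an adaptor of these receptors that is induced by NF-kB, was 2.90-fold higher in PTIR1 Foxp3 positive T cells (2.19 to 3.85) and 2.71-fold higher in mock ones (2.10 to 3.49). Nfkbia, the NF-kB inhibitor and target, was 2.11-fold higher in the PTIR1 library (1.91 to 2.33) and 2.24-fold higher in the mock library (1.996 to 2.51). Among 12 ligands and receptor partners, Il10ra was called higher in both, 2.85-fold in the PTIR1 library (1.30 to 6.25) and 2.17-fold in the mock library (1.12 to 4.09). Il2rg, the common gamma chain, had ratios of 1.82 (1.32 to 2.48) in the PTIR1 library and 2.01 (1.56 to 2.58) in the mock library, where it was called. Against CD4 other T cells, 3 of 11 measured signalling genes were called higher and 1 lower in the PTIR1 library. In the mock library 0 of 12 were called. Over all genes 10.4% and 9.74% were called there in either direction.

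Between the libraries 6.14% of all genes were called in Foxp3 positive T cells, and the lists differed from each other. In the effector list 1 of 27 measured genes was called higher and 1 lower: Cd83, a marker of activated lymphocytes and mature DCs, was 2.63-fold higher in PTIR1 cells (1.19 to 6.21), and Ikzf4 was 2.63-fold lower (1.44 to 5.05). On the log2 scale the median of that list was -0.09 and that over all measured genes -0.05, while that of the 7 genes other than Foxp3 was -0.65. In the resting list 3 of 7 measured genes were called, all on few UMIs. S1pr1 was 3.07-fold higher in PTIR1 cells (1.22 to 8.69), on 18 PTIR1 and 7 mock UMIs. Ccr7 was 2.65-fold higher (1.15 to 6.62), on 20 and 9 UMIs. Satb1 was 2.07-fold lower (1.15 to 3.88), on 17 and 42 UMIs. No signalling gene (0 of 12) and no ligand or partner (0 of 7) was called. The other chains of the interleukin 2 receptor, which pair with Il2ra, had ratios of 0.895 for Il2rb (0.677 to 1.18) and 0.824 for Il2rg (0.597 to 1.13).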

How the data were processed

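Single-cell libraries of 2 samples, 1 PTIR1 and 1 mock, were analysed from the deposited matrices of UMI counts per gene and cell. The submitters' processing notes name Cell Ranger 5.0.0, Seurat 3.2.3 and the mm10 build. The deposited counts were used without normalization. Cells with 200 or more genes and no more than 10% of UMIs from mitochondrial genes were gated on raw UMIs (Python 3.11.15, scipy 1.17.1): T by at least 2 Cd3 UMIs, NK by 2 UMIs of Ncr1, Klre1 and Klrb1c, and myeloid by at least 5 UMIs and 50 per 10000 of 7 macrophage genes. A cell meeting more than 1 gate was left out, except that mature DCs that also met the myeloid gate were kept. The 7 macrophage gate genes summed to 840.57 CPM in PTIR1 mature DCs and 2783.5 CPM in mock ones. Leaving cells out in this way also served as the treatment of doublets, with removal of the highest Scrublet scores (scanpy 1.11.5) as an alternative. UMIs were summed per gate, divided by the gate's total (CPM), and compared with exact conditional binomial intervals. No test across samples was possible, and the design planned none. The calling step was tested on simulated Poisson counts of summed UMIs. These had no spread between cells, so that test does not cover genes whose UMIs lie in few cells. The 8 genes and the other lists were chosen with earlier results of these data known. Named list genes are those whose interval end nearest to 1 lies farthest from it (up to 5 per list and comparison, not all of them printed), and genes of like pattern had at least 50 UMIs. A further list of macrophage markers is not reported here. Alternatives (11 planned and 3 added after seeing the data) are given in the closing section.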

Additional observations from a re-analysis of the deposited data

Results flagged for a closer look

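Il2ra and Icos had intervals on opposite sides of 1 in different cells when the PTIR1 library was set against the mock library. For Il2ra the ratio was 0.483 in Foxp3 positive T cells, 1.73 in other T cells and 2.44 in NK cells. For Icos it was 0.356 in Foxp3 positive T cells and 1.67 in other T cells. With 1 library per genotype the difference between cell types was not tested. Among CD4 positive cells alone the Il2ra ratio was 0.509 in Foxp3 positive T cells and 0.535 in other T cells, so the split between these 2 sets did not appear among CD4 positive cells. The Icos ratios among CD4 positive cells were 0.277 in Foxp3 positive T cells and 1.18 in other T cells.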

How the results depend on the processing

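The count of genes called higher in Foxp3 positive T cells than in other T cells was 6 in the PTIR1 library under all alternatives tried but CD4 cells only, which gave 4, and 6 in the mock library but for CD4 cells only (5) and T cells of several gates counted in (7). The genes counted were not always the same: with T cells of several gates counted in, the PTIR1 ratio was 1.71 for Tnfrsf9 and 2.39 for Icos. The count called between libraries in Foxp3 positive T cells, 3, fell to 1 with CD4 cells only and to 1 with cells of several gates counted as T. It was 2 with scaling to the median gene, with at least 2 Foxp3 UMIs and with at least 5000 UMIs, and 4 with at least 3 Cd3 UMIs and with the lower macrophage limit of 20 per 10000. With the highest doublet scores removed it was 3. In other T cells, where the count was 0, those settings and cells with at least 5000 UMIs each gave 1. In NK cells the 1 call was lost when each cell weighed the same (0). In myeloid cells, with 0 calls, that weighting gave 2 and cells with at least 5000 UMIs gave 2. The shares of all genes called under these alternatives are not given here. Whether the counts moved with those shares therefore cannot be read from them. The Foxp3 positive share of T cells, 25% in the PTIR1 library and 19.8% in the mock library, became 33.3% and 39.7% among CD4 cells, and 14.5% and 10.2% with cells of several gates counted in, so its order turned round among CD4 cells. The cause of these shifts was not tested. With no minimum of UMIs, 8.24% of all genes were called between Foxp3 positive and other T cells of the PTIR1 library (12.5% with it), and 4.02% between the libraries in Foxp3 positive T cells (6.14% with it). The Icos ratio in Foxp3 positive T cells ranged from 0.277 to 0.438 over 12 alternatives and that of Il2ra from 0.444 to 0.620. Scaling to the median gene shifted the mock comparison of Foxp3 positive and other T cells by 0.12 (log2). No paired analysis was possible because each genotype has 1 library. The number of cells limits the values of the 29 PTIR1 and 42 mock Foxp3 positive T cells, and few UMIs limit Il10.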

Other observations

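Outside Foxp3 positive T cells, 3 of 24 measured effector genes and 1 of 10 resting genes were called between the libraries in other T cells, beside 6.78% of all genes. Among them Il1rl1, the receptor of interleukin 33, had 6 UMIs in the PTIR1 library and 79 in the mock library and was 8.48-fold lower in PTIR1 cells (3.73 to 23.8). Pdcd1, the gene of the checkpoint receptor PD-1, was 2.30-fold lower in PTIR1 other T cells (1.55 to 3.50), and Bach2, a factor that restrains T cell differentiation, 4.51-fold lower (1.91 to 12.97). Rora was 2.25-fold higher in PTIR1 other T cells (1.59 to 3.1998). The share of CD8 cells among other T cells also differed between the libraries (14 of 87 in the PTIR1 library and 59 of 170 in the mock library), and its part in these values was not tested.

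In NK cells 1 of 27 effector genes and 1 of 9 resting genes were called, beside 3.73% of all genes. Cd83 was 2.82-fold higher in PTIR1 NK cells (2.05 to 3.96) and Ccr7, the lymph node homing receptor, 2.48-fold higher (1.65 to 3.83), both at levels under 50 CPM. Il2ra was also carried by mature DCs, whose gate uses Ccr7, and whether their RNA contributed was not tested. In myeloid cells Nfkbia was 2.002-fold higher in the PTIR1 library (1.97 to 2.04) and Klf2 2.11-fold higher (2.06 to 2.17), where 5.71% of all genes were called. In Foxp3 positive T, other T and NK cells neither was called, but the ratios ran the same way: Nfkbia had 1.76 in Foxp3 positive T, 1.87 in other T and 1.74 in NK cells, and Klf2 1.54, 1.69 and 1.27. Immediate early genes summed to 6686 CPM in PTIR1 and 4370.4 CPM in mock myeloid cells, and their part was not tested. Median depth of the myeloid gate was 7485 UMIs in the PTIR1 library and 1355 UMIs in the mock library.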
